A study of Mus musculus with 12 samples.

Results

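Metallothioneins and the antioxidant genes under the transcription factor NRF2 were followed in the colon during dextran sulfate sodium (DSS) colitis. The 10 genes were Mt1, Mt2, Gpx2, Nqo1, Gclc, Gclm, Srxn1, Txnrd1, Slc7a11 and Nfe2l2, taken by their symbols from the 54532 genes of the deposited table. All 10 were among the 24102 genes that passed the filter on low values. RNA from whole mouse colon was sequenced from 12 libraries, 3 in each of 4 groups, on the C57BL/6N background and in young adult animals. In Tmem173fl/fl mice the Tmem173 gene, which encodes the adaptor STING of DNA sensing, is floxed and no Cre is present, and Tmem173iΔmye mice combine the same alleles with Lyz2-Creert2. This Cre is driven from the Lyz2 locus, which is active in myeloid cells, and acts only after tamoxifen. Mice of both genotypes, untreated and colitic alike, received tamoxifen 5 times, so the agent was common to every group. Colitic mice then had DSS for 7 days and the untreated mice did not. The labels call the genotypes WT and CRE, and the colitic Tmem173iΔmye libraries bear the numbers 1, 2 and 5.

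Metallothioneins are small cysteine-rich proteins that bind zinc and copper, and their genes are switched on by metals, glucocorticoids and inflammatory cytokines. NRF2, encoded by Nfe2l2, is held at low levels by KEAP1 and is released by oxidants and electrophiles, after which it binds antioxidant response elements with small MAF proteins. In the gut, its targets make and recycle glutathione and thioredoxin, and Gpx2 is known as a glutathione peroxidase of the epithelium.

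The sequences before the starts of Mt1, Mt2 and Slc7a11 are shown because these genes had the largest changes of the set with DSS in Tmem173fl/fl mice. They are the 250 bases upstream of a RefSeq start on GRCm38.p6, written 5′ to 3′ on the strand of the gene, at chr8:94178839-94179088 for Mt1 (plus strand), chr8:94172368-94172617 for Mt2 (plus strand) and chr3:50443614-50443863 for Slc7a11 (minus strand). Capitals mark matches on either strand to 4 short patterns: the antioxidant response element core TGACNNNGC, the metal response element cores TGCGCNC and TGCACNC, and the amino acid response element core TGATGNAA.
Mt1: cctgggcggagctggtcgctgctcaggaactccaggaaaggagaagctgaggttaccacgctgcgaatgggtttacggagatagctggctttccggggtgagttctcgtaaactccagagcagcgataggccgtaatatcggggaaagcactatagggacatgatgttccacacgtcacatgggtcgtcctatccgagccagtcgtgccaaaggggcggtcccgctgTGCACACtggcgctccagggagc
Mt2: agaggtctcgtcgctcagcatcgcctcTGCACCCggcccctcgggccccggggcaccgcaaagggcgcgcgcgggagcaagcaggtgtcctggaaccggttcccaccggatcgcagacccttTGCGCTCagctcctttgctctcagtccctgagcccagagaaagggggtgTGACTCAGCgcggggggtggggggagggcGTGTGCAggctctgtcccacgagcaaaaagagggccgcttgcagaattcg
Slc7a11: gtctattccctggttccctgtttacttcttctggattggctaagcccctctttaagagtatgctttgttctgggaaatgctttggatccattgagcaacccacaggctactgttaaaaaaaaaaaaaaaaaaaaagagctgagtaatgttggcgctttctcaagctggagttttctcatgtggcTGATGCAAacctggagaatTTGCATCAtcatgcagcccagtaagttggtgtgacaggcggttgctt
The Mt2 window held 1 match to the antioxidant core, beginning 79 bases before the start, and 3 matches to the metal cores, at 223 and 128 bases on the gene's strand and at 50 bases on the other. The Mt1 window held 1 match to TGCACNC at 23 bases, and the Slc7a11 window held TGATGNAA at 66 bases on the gene's strand and at 47 bases on the other. Among 32817 windows of the same length in the table, 10.2% held the antioxidant core, 12.5% and 10.4% the metal cores, and 3.45% the amino acid core. Windows were given for 9 of the 10 genes, Gclc excepted, and the antioxidant core was found for 4 of these 9, namely Nfe2l2, Gclm, Mt2 and Txnrd1. These genes had 11 windows, 3 of them for Txnrd1, and the core was in 4 of the 11. In Gclm it overlapped a match to a metal core, and in the printed windows no matches overlapped. These letter matches are a description and show no binding.

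Library totals ran from 13823237 to 18718915 counts. The 10 epithelial markers summed to between 2515 and 8106 FPKM (fragments per kilobase of gene length, scaled to library depth) across the libraries, and none of them was at 0 counts in any library. Tmem173, the targeted gene, was at 41.4 ± 3.30 CPM (counts scaled to library depth, SD, n = 3) in colitic Tmem173fl/fl colon and at 34.2 ± 12.3 CPM in colitic Tmem173iΔmye colon, a log2 difference of -0.28 with an adjusted p of 0.602 in edgeR, so these whole-tissue libraries do not show the deletion. Pancreatic enzyme genes summed to between 43.3 and 7301 FPKM across libraries, with high libraries in several groups. On the first principal component (56.0% of the variance), colitic Tmem173iΔmye libraries 1, 2 and 5 lay at 53.4, 11.6 and -22.9. Colitic Tmem173fl/fl libraries lay from 81.1 to 101.5 and untreated libraries from -61.5 to -41.8. Library 5 of the colitic Tmem173iΔmye mice stood apart on the second principal component (9.77%), at -78.6 against -15.7 to 20.5 in the other 11 libraries. That library and number 3 of each untreated group had from 20384 to 29356 Xist counts and 0 Y-linked counts, whereas the remaining 9 libraries, all 3 of colitic Tmem173fl/fl mice among them, had the reverse pattern, called Y-linked here. In whole tissue, fewer cells of a type and less RNA per cell cannot be told apart.

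Per length, Mt1 had the highest mean of the 10 genes in untreated Tmem173fl/fl colon, at 85.0 ± 52.3 FPKM (SD, n = 3). Library 2 was at 144.6 FPKM, while libraries 1 and 3, at 47.2 and 63.1 FPKM, lay below every Gpx2 library. Slc7a11, which imports cystine, had the lowest mean, at 0.279 ± 0.034 FPKM. In between were Gpx2 at 73.6 ± 6.45, Nfe2l2 at 56.1 ± 2.72, Srxn1 at 45.3 ± 2.81, Txnrd1 at 33.4 ± 1.68, Gclc at 22.7 ± 2.30, Nqo1 at 17.4 ± 1.09, Gclm at 13.6 ± 1.95 and Mt2 at 0.286 ± 0.265 FPKM. Of these neighbours, the library ranges overlapped for Mt1 with Gpx2 and for Mt2 with Slc7a11, and the Mt1 range also covered that of Nfe2l2. In colitic Tmem173fl/fl colon, Mt1 reached 654 ± 169 FPKM, clear of every other member. Nfe2l2 came next by its mean at 47.2 ± 6.44 FPKM, and its library range overlapped that of Srxn1, at 46.55 FPKM. In colitic Tmem173iΔmye colon, Mt1 was again first at 197 FPKM and Gpx2 second by its mean at 68.9 FPKM, with Mt2 at 1.49 and Slc7a11 at 1.18 FPKM the least abundant. The library ranges there overlapped for Gpx2 with Srxn1, at 49.8 FPKM, and for Mt2 with Slc7a11.

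Mt1 and Mt2 lie beside each other on chromosome 8 of GRCm38, Mt2 (ENSMUSG00000031762) at chr8:94172664-94173568 and Mt1 (ENSMUSG00000031765) at chr8:94179082-94180327, both on the plus strand. They were counted very unequally. The Mt2 reads came to between 0% and 0.869% of the Mt1 reads in the same library, and Mt1 was between 54.3 and 430 times as high per length in the 11 libraries with any Mt2 read. In the GENCODE M21 annotation, the antisense gene Gm45774 (chr8:94170748-94173412) covers 432 of the 588 exon bases of Mt2, or 73.5%, whereas no exon of another gene overlaps Mt1. Gm45774 itself had from 0 to 51 counts per library, and its counts in colitic Tmem173fl/fl colon were 51, 38 and 38. Whether reads were counted by strand is not given in the sources used here, so reads of Mt2 and of Gm45774 cannot be told apart, and the part of the overlap in the low Mt2 level was not tested. Among the remaining genes, only Gclm shares exon bases with other genes, 4.71% with Gm17494 and 3.88% with the pseudogene Gm6061.

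**Figure D1:**
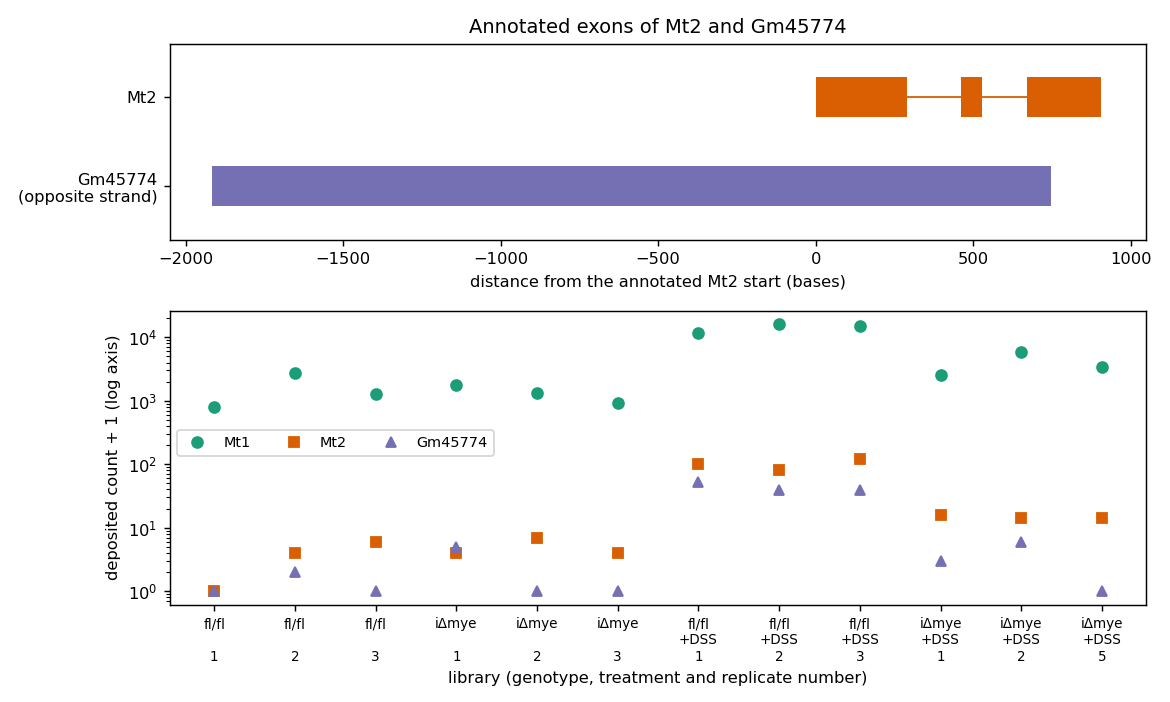
Top, annotated exons of Mt2 and of the opposite-strand gene Gm45774, drawn to scale by distance from the Mt2 start in bases. Bottom, deposited counts plus 1 of Mt1, Mt2 and Gm45774 in each of the 12 libraries on a log axis, with Mt2 between 0 and 118 counts and Mt1 between 799 and 16003.

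With DSS in Tmem173fl/fl mice, the metallothioneins and Slc7a11 rose and Gpx2 fell, while NRF2's own transcript and most of its targets in the set were not called. Of the 10 genes, 3 were called higher and 1 lower, by edgeR's quasi-likelihood test, where a call needed an adjusted p below 0.05 and a change of 1 or more on the log2 scale in either direction. Over all genes tested in this comparison, 14.9% were called higher and 7.61% lower. The median log2 fold change was 0.14 over the 10 genes and 0.03 over all genes tested.

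Mt1 was at 60.5, 185 and 80.2 CPM in the untreated Tmem173fl/fl libraries and at 630, 758 and 1030 CPM in the colitic ones. The lowest colitic library was thus well above the highest untreated one, and the untreated library 2 was more than double the other two. The rise in Mt1 was 7.82-fold (log2 2.97 ± 0.39 SE, adjusted p = 0.0002714). Mt2 had 0, 3 and 5 counts in the untreated libraries and 101, 80 and 118 counts in the colitic ones, with no overlap. Its fitted log2 fold change was 5.0 ± 0.61 (adjusted p = 0.0001716), and with 8 untreated reads in all its size is loosely set. The overlapping Gm45774 went from 0, 1 and 0 counts to 51, 38 and 38 counts in the same libraries.

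Slc7a11 encodes the transport subunit of the cystine and glutamate exchanger, the entry step for glutathione synthesis. Its levels were 3.64, 3.79 and 4.51 CPM in the untreated Tmem173fl/fl libraries and 37.0, 52.5 and 38.0 CPM in the colitic ones. The groups were far apart, with a rise of 11.2-fold (log2 3.48 ± 0.21, adjusted p = 2.537e-06). The synthesis enzyme itself was not called. Gclc, the catalytic subunit of glutamate-cysteine ligase, was at 78.4, 95.7 and 89.1 CPM untreated and at 131, 102 and 179 CPM with DSS. These ranges did not overlap, but the difference of 1.64-fold (log2 0.71 ± 0.20, adjusted p = 0.01801) was under the fold threshold. Gclm, the modifier subunit of the same enzyme, ran from 79.1 to 101.7 CPM untreated and from 67.6 to 83.4 CPM with DSS, a log2 difference of -0.10 ± 0.15 (adjusted p = 0.6324).

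Gpx2 went the opposite way. It was at 267.8, 237.8 and 224.2 CPM in untreated Tmem173fl/fl colon and at 97.2, 38.2 and 98.9 CPM in colitic colon, so every colitic library was below every untreated one. Gpx2 fell 2.97-fold (log2 -1.57 ± 0.31, adjusted p = 0.002813). Nqo1, the quinone reductase often used as a readout of NRF2, was at 26.1, 29.5 and 27.7 CPM untreated and at 19.9, 15.9 and 27.2 CPM with DSS. The ranges overlapped and the log2 difference of -0.34 ± 0.20 was not called (adjusted p = 0.2226).

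The 2 members of the thioredoxin branch, Srxn1 and Txnrd1, were not called. Srxn1, which repairs oxidised peroxiredoxins, ran from 121 to 136 CPM untreated and from 107 to 159 CPM with DSS (log2 0.06 ± 0.16, adjusted p = 0.8231). Txnrd1, the cytosolic thioredoxin reductase, ran from 231 to 256 CPM and from 213 to 340 CPM (log2 0.23 ± 0.18, adjusted p = 0.351). Nfe2l2 was at 218, 230 and 207 CPM untreated and at 180, 153 and 199 CPM with DSS. The Nfe2l2 groups did not overlap, but the log2 difference was only -0.23 ± 0.14 and not called (adjusted p = 0.2502).

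**Figure D2:**
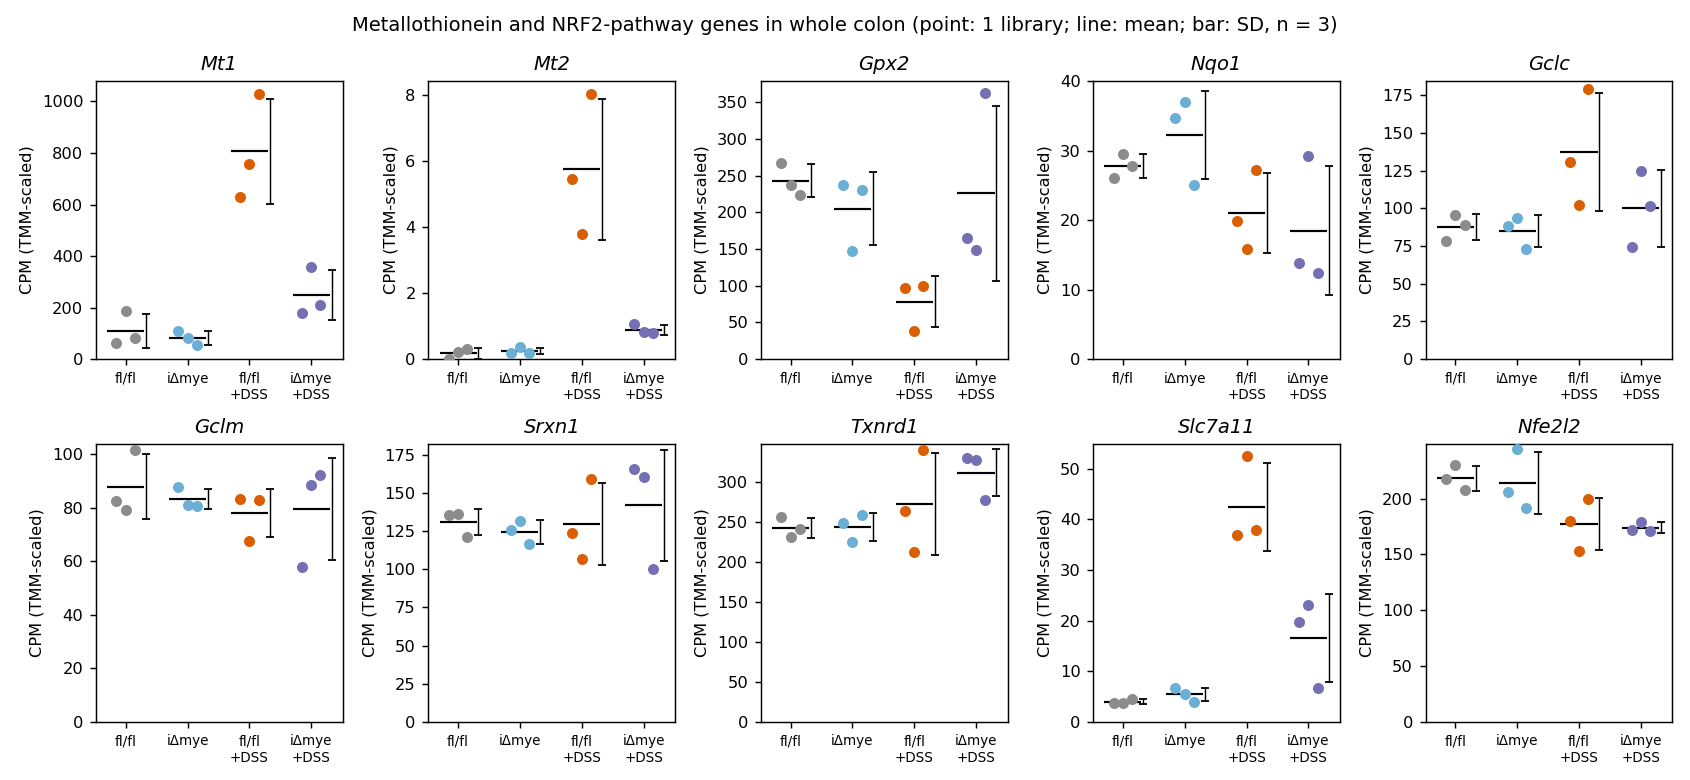
CPM (TMM-scaled, linear axes from 0) of the 10 genes in the 4 groups, with 1 point per library, a line at the mean and a bar for the SD over 3 libraries. In Mt1 and Slc7a11 the 3 colitic Tmem173fl/fl libraries sit above every other library, and in Gpx2 they sit below every other library.

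Markers of several cell types moved in the same comparison. Fibroblast markers were called higher for 6 of 6 genes, with summed levels of 144.5 to 173 FPKM untreated and 1017 to 1275 FPKM colitic. Neutrophil markers were called higher for 9 of 9 genes (44.7 to 105.5 against 570.1 to 942 FPKM), with S100a8, Cxcr2, Ngp, Mmp8 and Camp at 0 in at least 1 untreated library. Macrophage markers were called higher for 9 of 10 genes (144 to 188 against 503 to 632 FPKM) and endothelial markers for 5 of 5 (12.5 to 14.6 against 55.1 to 75.3 FPKM). Epithelial markers were called lower for 5 of 10 genes, with sums of 6184 to 7663 FPKM untreated and 2515 to 4413 FPKM colitic. Smooth muscle markers had none of 6 called. The part of these shifts in the changes of Mt1, Mt2, Slc7a11 and Gpx2 was not tested.

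With DSS in Tmem173iΔmye mice, Mt1 was the 1 gene of 10 called, higher, against 1.48% of all genes called higher and 0.597% lower. Mt1 was at 107.8, 80.6 and 56.1 CPM in the untreated Tmem173iΔmye libraries and at 180.4, 358.8 and 207.9 CPM in the colitic ones. The groups did not overlap, and the rise was 3.05-fold (log2 1.61 ± 0.31, adjusted p = 0.02898). This call was lost on leaving out library 1, 2 or 3 of the untreated group (adjusted p = 0.1012, 0.1688 and 0.1744) or library 2 of the colitic group (0.0644), and with the libraries of the Y-linked pattern alone (0.0556). It was also lost with limma, at an adjusted p of 0.1293 and 0.1376 for pseudocounts of 0.1 and 1.

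Slc7a11 was at 6.68, 5.51 and 3.97 CPM untreated and at 19.8, 23.1 and 6.68 CPM with DSS in Tmem173iΔmye mice. Colitic library 5 lay just above the highest untreated library, well below the other two colitic ones. The log2 difference of 1.62 ± 0.43 was not called (adjusted p = 0.09776), and without colitic library 5 it was 2.02 and called (adjusted p = 0.001735). Mt2 had 3, 6 and 3 counts untreated and 15, 13 and 13 counts with DSS, which did not overlap (log2 1.85 ± 0.61, adjusted p = 0.1737).

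Gpx2 was at 236.8, 147.9 and 230.3 CPM untreated and at 165.3, 149.2 and 362.9 CPM with DSS in Tmem173iΔmye mice. The highest of these 6 values was colitic library 5, and the groups overlapped (log2 0.14 ± 0.34, adjusted p = 0.8929), with -0.36 when that library was left out. Nqo1 was at 34.7, 37.0 and 25.1 CPM untreated and at 13.8, 29.2 and 12.4 CPM with DSS, a log2 difference of -0.80 ± 0.33 that was not called (adjusted p = 0.2705). Txnrd1 was higher in all 3 colitic libraries, 278 to 330 CPM against 224 to 258 CPM, at a log2 difference of 0.35 ± 0.19 (adjusted p = 0.419). Nfe2l2 was lower in all 3, 171 to 179 CPM against 191.5 to 244.5 CPM, at -0.30 ± 0.19 (adjusted p = 0.4905). Gclc, Gclm and Srxn1 had log2 differences of 0.23, -0.07 and 0.19 with overlapping groups.

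In the same comparison, neutrophil markers were called higher for 5 of 9 genes (sums of 44.3 to 82.4 FPKM untreated and 233 to 326 FPKM colitic), macrophage markers for 2 of 10 (141 to 230.3 against 214.5 to 391 FPKM) and fibroblast markers for 1 of 6 (146 to 180 against 296 to 416 FPKM). Epithelial markers (6513 to 8106 FPKM untreated and 4915 to 6510 FPKM colitic) and endothelial markers (13.8 to 16.1 against 21.1 to 41.2 FPKM) had none called, although neither pair of ranges overlapped. The part of these markers in the rise of Mt1 was not tested.

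**Figure D3:**
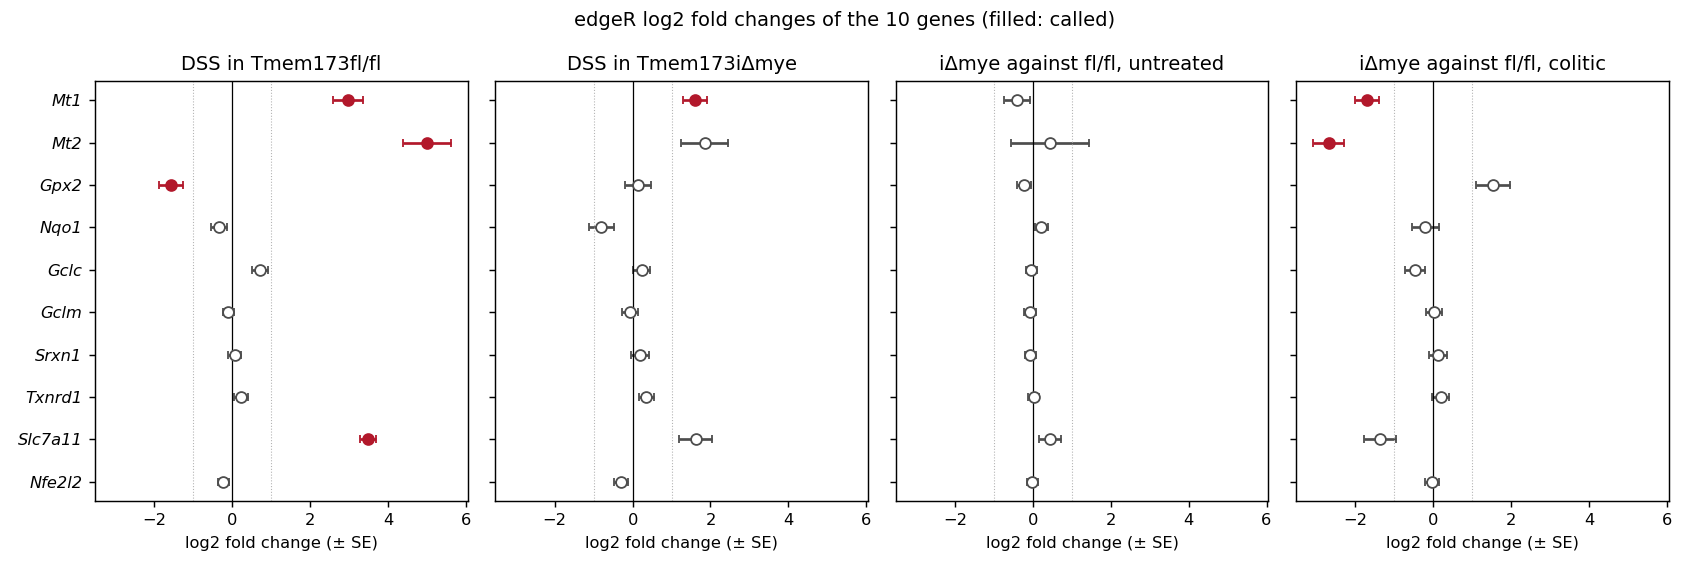
Log2 fold changes of the 10 genes from edgeR with their SE in 4 comparisons, where filled points were called at an adjusted p under 0.05 beyond the dotted lines at -1 and 1. Called points number 4 for DSS in Tmem173fl/fl mice, 1 for DSS in Tmem173iΔmye mice, 0 between untreated genotypes and 2 between colitic genotypes.

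Without DSS, the genotypes were not told apart at any of the 10 genes. None was called by edgeR, as for all genes tested (0% called, with 720 genes at an unadjusted p under 0.05 and 8 genes called by DESeq2). The log2 differences of Tmem173iΔmye from Tmem173fl/fl colon ran from -0.41 in Mt1 to 0.44 in Slc7a11, each with an adjusted p of 1, and the groups overlapped at every gene. No member had an unadjusted p under 0.05, and DESeq2 called none of them.

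Between the colitic groups, both metallothioneins were lower in Tmem173iΔmye colon than in Tmem173fl/fl colon. They were the 2 genes of 10 called, against 1.99% of all genes called lower and 0.822% called higher. Mt1 ran from 180.4 to 358.8 CPM in the Tmem173iΔmye libraries and from 630 to 1030 CPM in the Tmem173fl/fl libraries, a 3.27-fold lower level (log2 -1.71 ± 0.31, adjusted p = 0.03026). Mt2 had 13 to 15 counts against 80 to 118 counts (log2 -2.69 ± 0.40, adjusted p = 0.01809). Neither pair of groups overlapped, and for Mt1 the lowest colitic Tmem173iΔmye library, at 180.4 CPM, was just under the highest untreated Tmem173fl/fl library, at 185 CPM. Gm45774, which overlaps Mt2, had 0 to 5 against 38 to 51 counts. Outside colitic Tmem173fl/fl colon it reached the filter's FPKM of 0.1 only in colitic Tmem173iΔmye library 2, at 0.115. It thus passed the filter through the group where it was high, and its test is not used here.

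These calls rested on few libraries. Mt1 passed on leaving out library 1 of the Tmem173iΔmye group (adjusted p = 0.04063), and did not pass without Tmem173fl/fl library 1 (0.08514), 2 (0.06921) or 3 (0.0805) or without Tmem173iΔmye library 2 (0.05234) or 5 (0.06277). Mt2 did not pass without Tmem173fl/fl library 1 (0.07301) or 3 (0.05601) or Tmem173iΔmye library 2 (0.07276). The log2 difference stayed between -2.05 and -1.48 for Mt1 and between -2.91 and -2.37 for Mt2 over these omissions. Mt2 was called and Mt1 was not with limma (adjusted p for Mt1 = 0.08311 and 0.07795 at pseudocounts of 0.1 and 1) and with the libraries of the Y-linked pattern alone (0.06277). The latter run is the same fit as that without Tmem173iΔmye library 5. With a block on the replicate number neither gene was called, but this run also left out Tmem173fl/fl library 3 and Tmem173iΔmye library 5. Same-numbered libraries did not deviate together.

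Slc7a11 and Gpx2 were not called between the colitic groups, whose libraries did not overlap for either gene. How many of all genes separate in this way was not counted. Slc7a11 was at 6.68 to 23.1 CPM in Tmem173iΔmye colon against 37.0 to 52.5 CPM (log2 -1.37 ± 0.41, adjusted p = 0.1081). Gpx2 was at 149.2 to 362.9 CPM against 38.2 to 98.9 CPM (log2 1.53 ± 0.44, adjusted p = 0.1038). DESeq2, edgeR with no filter on low values, and 1 edgeR fit of all 12 libraries each called both genes, so 4 of 10 were called there. Those runs also called more of all genes, 1619, 1257 and 1492, against 678 in the main run. Gclc was at -0.47 ± 0.26 (adjusted p = 0.3514), and Nqo1, Gclm, Srxn1, Txnrd1 and Nfe2l2 had log2 differences between -0.20 and 0.19 with overlapping groups.

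Cell type markers also differed between the colitic groups. In Tmem173iΔmye colon, fibroblast markers were called lower for 5 of 6 genes (sums of 296 to 416 FPKM against 1017 to 1275 FPKM), neutrophil markers for 6 of 9 (233 to 326 against 570.1 to 942 FPKM, with Camp at 0 in library 2) and macrophage markers for 3 of 10 (214.5 to 391 against 503 to 632 FPKM). Endothelial markers were called lower for 1 of 5 genes (21.1 to 41.2 against 55.1 to 75.3 FPKM). Epithelial markers had 0 of 10 called, with sums of 4915 to 6510 FPKM against 2515 to 4413 FPKM. Their part in the metallothionein differences was not tested.

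Whether the DSS response itself differed between genotypes was tested with an interaction term over all 12 libraries. None of the 10 genes was called by edgeR, against 0.934% of all genes called with a larger and 1.61% with a smaller value in Tmem173iΔmye mice. Mt2 (log2 -3.10 ± 0.89, adjusted p = 0.08004), Slc7a11 (-1.80 ± 0.51, 0.0804) and Gpx2 (1.78 ± 0.52, 0.08684) came nearest, each with an unadjusted p under 0.05, as had Mt1 (-1.28 ± 0.55, 0.2374). DESeq2 called Mt2, Gpx2 and Slc7a11, with adjusted p-values of 0.01089, 0.01689 and 0.01188. Without colitic Tmem173iΔmye library 1, edgeR called Gpx2 (0.03862) and Slc7a11 (0.04566), and without library 5 it called Slc7a11 (0.03802). The other 6 genes had interaction terms between -0.41 and 0.20.

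The wider pathways were read from 92 further genes in 5 lists, of zinc handling and other metallothioneins, NRF2 regulators, glutathione, thioredoxin and peroxide enzymes, and other NRF2 targets, all of which passed the filter. With DSS in Tmem173fl/fl mice, 18 were called higher and 7 lower (27.2%), at a median log2 fold change of 0.02 against 0.03 over all genes. This share is near that over all genes tested, of which 22.5% were called. In the zinc list 4 of 20 rose and none fell. These were Mt3, a further metallothionein (log2 2.95 ± 0.35), the zinc exporter Slc30a2 (2.82 ± 0.44, from 3 to 5 counts untreated) and the zinc importers Slc39a14 (2.62 ± 0.17) and Slc39a6 (1.52 ± 0.16). Among untreated libraries, Slc30a2 reached the filter's FPKM of 0.1 only in Tmem173fl/fl library 1 (0.103) and Tmem173iΔmye library 3 (0.365). It thus passed the filter through the colitic libraries, where it was high. Its call stays in the counts, but its test is given no weight here.

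Among the NRF2 regulators, 2 of 13 rose and none fell, both of them small MAF proteins that pair with NRF2 and its repressors, Maff (log2 1.56 ± 0.15) and Mafg (1.05 ± 0.13). In the glutathione list, 6 of 14 rose and 1 fell. Ggt1, which breaks down glutathione outside the cell, was at 3.89 ± 0.29, the secreted peroxidase Gpx3 at 3.68 ± 0.23 and Gpx8 at 1.54 ± 0.21, while Chac2, a cytosolic glutathione-degrading enzyme, was at -1.62 ± 0.23. Slc3a2, the heavy chain that pairs with Slc7a11, rose by 1.38 ± 0.17 (adjusted p = 0.0001589), and was picked out after its value was seen. In the thioredoxin and peroxide list, 2 of 15 rose, the extracellular and mitochondrial superoxide dismutases Sod3 (3.94 ± 0.18) and Sod2 (1.43 ± 0.15), and 2 fell, thioredoxin Txn1 (-1.27 ± 0.20) and Prdx6 (-1.27 ± 0.26).

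Among the 30 other NRF2 targets, 4 rose and 4 fell. Hmox1, heme oxygenase, was at 6.89, 5.28 and 6.76 CPM untreated and at 166.5, 299.6 and 85.9 CPM with DSS. No colitic library came near the untreated range, and the rise was 30.6-fold (log2 4.93 ± 0.43, adjusted p = 2.145e-05). Aox1 (2.58 ± 0.29) and the ferritin heavy chain Fth1 (1.94 ± 0.17) also rose, and the glutathione transferase Gstm3 fell by 3.19 ± 0.22. Of the 18 genes named by the size of their change from these lists, Slc3a2 apart, 15 kept their calls under every alternative run. The exceptions were Slc30a2, which was lost with limma at a pseudocount of 1 and did not pass the filter at an FPKM of 1, Prdx6 without untreated library 1, and Mafg in 5 alternatives, where its smallest change was 0.97, among them those without untreated library 3 or colitic library 2. For Mafg, the run without untreated library 3 and that of the Y-linked pattern are the same fit, counted as separate alternatives.

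In Tmem173iΔmye mice, DSS gave 3 higher and 5 lower calls among the 92 genes (8.7%), where 2.08% of all genes were called. Of the zinc, regulator and glutathione lists, none was called. Sod3 rose by 1.56 ± 0.28 and Hmox1 by 1.46 ± 0.27, while Gstm3 fell by 2.48 ± 0.34, Cbr3, a carbonyl reductase, by 1.70 ± 0.35 and Gstm1 by 1.21 ± 0.21. All of these calls were lost without library 1, 2 or 3 of the untreated Tmem173iΔmye group, where none of the 92 genes was called, and those of Cbr3 and Hmox1 also without colitic library 1 or 2. Without colitic library 1, 2 or 5, the number called among the 92 was 3, 4 and 12, and limma called none at either pseudocount, 0.1 or 1.

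Between the untreated genotypes none of the 92 genes was called by edgeR or DESeq2, and 3 had an unadjusted p under 0.05. Between the colitic genotypes 8 were called, all lower in Tmem173iΔmye colon (8.7%), where 1.99% of all genes were called lower and 2.81% in either direction. These were Mt3 (log2 -3.82 ± 0.54), Hmox1 (-3.10 ± 0.43), Sod3 (-2.30 ± 0.30), Gpx3 (-2.16 ± 0.34), Slc39a14 (-1.86 ± 0.30), Sod2 (-1.08 ± 0.18), Slc39a6 (-1.07 ± 0.24) and Maff (-1.01 ± 0.19). None of the 92 was called without Tmem173fl/fl library 1 or Tmem173iΔmye library 2, 3 and 4 were called without Tmem173fl/fl libraries 2 and 3, and 12 and 6 without Tmem173iΔmye libraries 1 and 5. With limma, 2 and 3 were called at pseudocounts of 0.1 and 1.

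The interaction term called 6 of the 92 genes (6.52%), each with a lower value in Tmem173iΔmye mice, where 1.61% of all genes were called in that direction and 2.55% in either. Mt3 showed the largest, at a log2 term of -4.22 ± 0.71 (adjusted p = 0.008853). It went from 1.52, 4.20 and 2.38 to 16.9, 17.3 and 25.6 CPM with DSS in Tmem173fl/fl mice, and from 3.94, 4.43 and 2.40 to 1.78, 2.12 and 0.364 CPM in Tmem173iΔmye mice. The colitic Tmem173iΔmye libraries of Mt3 thus lay below their untreated group, at -1.34 ± 0.57, which was not called (adjusted p = 0.2886). Hmox1 (-3.40 ± 0.50, adjusted p = 0.005896), Gpx3 (-2.44 ± 0.43, 0.01081), Sod3 (-2.31 ± 0.34, 0.005896), Slc39a14 (-1.84 ± 0.34, 0.01338) and Sod2 (-1.07 ± 0.20, 0.01463) made up the rest. All 6 kept their calls when any 1 of the 12 libraries was left out, and Mt3, Hmox1, Sod3 and Slc39a14 did so under every alternative run. Without colitic Tmem173iΔmye library 1, 16 of the 92 genes were called.

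**Figure D4:**
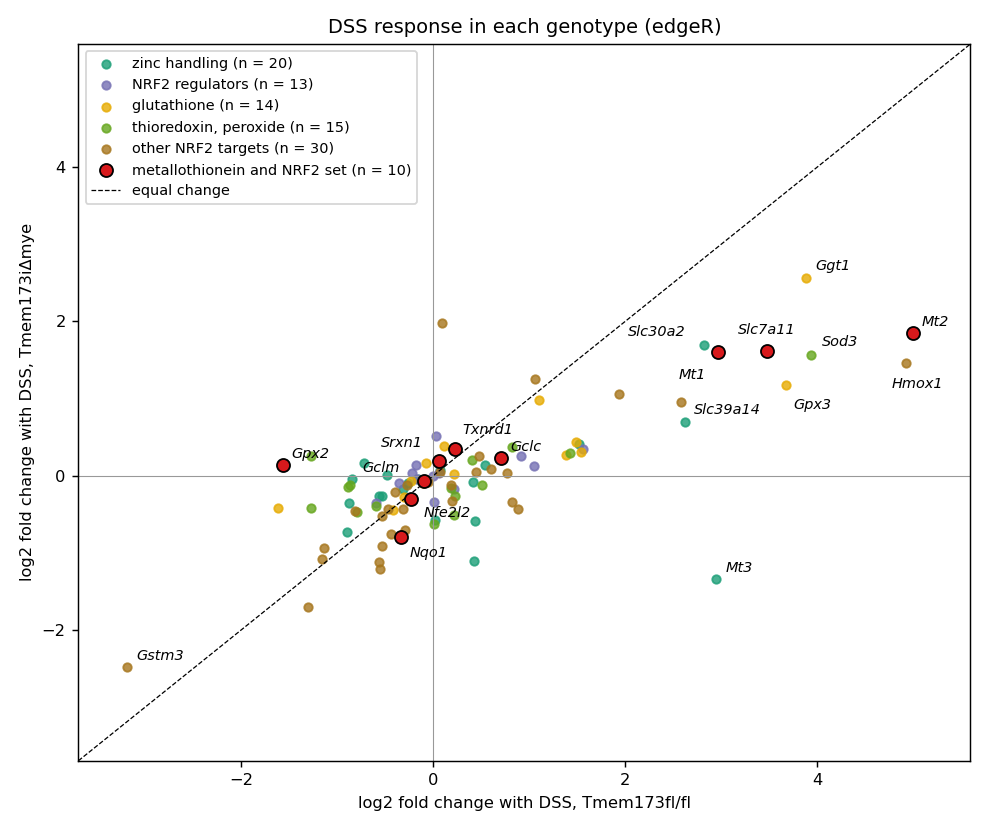
Log2 fold change with DSS in Tmem173fl/fl mice (x axis) against that in Tmem173iΔmye mice (y axis) for the 10 genes (red) and the 92 further pathway genes, 1 point per gene, with a dashed line of equal change. Mt1, Mt2, Slc7a11, Hmox1, Sod3 and Gpx3 lie at the right below the line, Mt3 lies at 2.95 and -1.34, and Gpx2 lies at -1.57 and 0.14.

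The genes whose pattern over the 12 libraries was most like that of 3 of the members were ranked among 14545 genes by Pearson's r of log2 CPM, a description in which the points share their libraries and the DSS effect. For Mt1 these were Tead1 (0.966), Rnf169 (0.962), Fndc3b (0.958), Igf1r (0.957) and Smim3 (0.956). For Gpx2 they were Dapk2 (0.973), Npepps (0.963), Sh3d21 (0.960), Serpinb5 (0.955) and Clca3b (0.954). For Nqo1 they were Ugdh (0.981), which is itself in the list of other NRF2 targets, Msra (0.952), Ces1e (0.951), Gm38560 (0.946) and Ociad2 (0.945).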

How the data were processed

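Polyadenylated RNA of whole colon was sequenced in 12 libraries, 3 in each of 4 groups taken from the labels. The values deposited by the authors were unnormalized counts of reads per gene, and FPKM values in which the authors had divided those counts by gene length and library depth. The submitters' processing notes name CASAVA 1.8, fastp, HISAT2 2.0.5, featureCounts 1.5.0-p3, DESeq2 1.20.0 and the builds GRCm38 and mm10, while the annotation release and the use of strand are not given in the sources used here. Deposited columns of the authors' own comparisons (log2 fold changes, p-values and adjusted p-values) and of group means were not used.

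Genes that reached an FPKM of 0.1 in 3 or more of the 12 libraries were tested with edgeR 4.0.16 (glmQLFit and glmQLFTest, TMM scaling, R 4.3.3), with p-values adjusted by Benjamini-Hochberg over all genes tested. Each pairwise fit held the libraries of its own groups, and the interaction term was fitted over all 12. The SE was taken as the log2 fold change over the root of its F value. Library totals are given with the results. The alternatives were RLE factors, no filter, an FPKM minimum of 1, DESeq2 1.42.0, limma 3.58.1 on log2(FPKM + 0.1) or log2(FPKM + 1), adjusted p alone, a replicate block, 1 fit of all libraries and leaving out each library. The block kept only libraries whose number occurs in every group compared. Where colitic Tmem173iΔmye mice entered, it thus left out the libraries numbered 3 and 5. Library totals without scaling, and the libraries of the Y-linked pattern alone, were added after seeing the data. For DSS in Tmem173fl/fl mice, the Y-linked run is the same fit as leaving out untreated library 3. Between colitic genotypes it is the same fit as leaving out Tmem173iΔmye library 5. The procedure was tested on simulated data. Nothing in the labels says more than that libraries are separate samples, so p-values measure the spread between these samples.

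The members and lists were chosen with earlier results of these data known. Named genes were the 10 members, up to 4 called genes with the largest change from each list, Tmem173, and the 5 genes most like Mt1, Gpx2 and Nqo1 among those with a mean FPKM of at least 1 (log2(CPM + 0.5)). Promoter windows came from RefSeq on GRCm38.p6, and gene positions from the deposited table and GENCODE M21 on GRCm38. A list of colon markers is not reported here.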

Additional observations from a re-analysis of the deposited data

Results flagged for a closer look

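The DSS response differed between genotypes, by the interaction term in edgeR, for 6 of the 92 genes of the pathway lists (6.52%). Over all genes tested, 2.55% were called by this term. None of the 10 members was called by edgeR, whereas DESeq2 called Mt2, Gpx2 and Slc7a11 among them. For the 6 pathway genes, the differences in edgeR were -4.22 for Mt3, -3.40 for Hmox1, -2.44 for Gpx3, -2.31 for Sod3, -1.84 for Slc39a14 and -1.07 for Sod2. Each is the log2 response in Tmem173iΔmye mice minus that in Tmem173fl/fl mice. With only the 9 libraries of the Y-linked pattern, the terms of Gpx3 and Sod2 were not called. The replicate block, which held only the libraries numbered 1 and 2, did not call that of Sod2. With 3 libraries in each group, single samples that stand apart were not tested.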

How the results depend on the processing

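Of the 10 genes, 4 were called for DSS in Tmem173fl/fl mice under the alternatives with the fold threshold and without any 1 library (range 4 to 4), and 5 on adjusted p alone, Gclc being the fifth. Between untreated genotypes 0 were called throughout. For DSS in Tmem173iΔmye mice, where Mt1 alone was called, the count was 2 with no filter, DESeq2, the replicate block and 1 fit of all 12 libraries, and 0 with limma at a pseudocount of 0.1 or 1, with a range of 0 to 2 over omissions of 1 library. For colitic genotypes, where Mt1 and Mt2 were called, it was 4 with no filter, DESeq2 and 1 fit of all libraries, 1 with limma at either pseudocount, 1 with the libraries of the Y-linked pattern, 0 with the replicate block, and 0 to 2 over omissions. For the interaction, with 0 called, it was 3 with no filter and with DESeq2, 1 with limma at a pseudocount of 1, 1 with the Y-linked pattern, and 0 to 2 over omissions.

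The same-numbered libraries did not deviate together (r of deviations from -0.17 to 0.18), so the replicate numbers were not taken as pairs. Where colitic Tmem173iΔmye mice entered, the block also left out the libraries numbered 3 and 5. The effects of the block and of the fewer libraries cannot be told apart there. With the block, the number of all genes called was 4939 (5422 without it) for DSS in Tmem173fl/fl mice, 1298 (501) for DSS in Tmem173iΔmye mice, 94 (0) between untreated genotypes, 101 (678) between colitic genotypes and 232 (614) for the interaction. Other alternatives that moved these counts by over 1.5 times were limma at a pseudocount of 1 (2848) and adjusted p alone (8544) in the first comparison. In the second they were no filter (1013), DESeq2 (1137), 1 fit (981), limma (62 and 58) and omissions (51 to 1469). Between untreated genotypes they were no filter (68), DESeq2 (8) and omissions (0 to 6), and between colitic genotypes no filter (1257), DESeq2 (1619), 1 fit (1492), limma (140 and 154) and omissions (27 to 1593). For the interaction they were no filter (1228), DESeq2 (1375), the Y-linked pattern (201) and omissions (267 to 1728). Of the 92 pathway genes, the block called 13 (8 without it) for DSS in Tmem173iΔmye mice, 1 (0) between untreated and 3 (8) between colitic genotypes, and 5 (6) for the interaction. Adjusted p alone called 51 (25 with the fold threshold) for DSS in Tmem173fl/fl mice, and between colitic genotypes DESeq2 and 1 fit each called 12. For the interaction, 12 were called with no filter, 13 with DESeq2, 10 with library totals and 4 with the Y-linked pattern.

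Signs turned only where a gene was not called. For DSS in Tmem173fl/fl mice, Srxn1 was -0.01 in 1 fit of all libraries and -0.14 to 0.16 over omissions, and Gclm 0.03 with library totals or the Y-linked pattern and -0.18 to 0.03 over omissions. For DSS in Tmem173iΔmye mice, Gpx2 was -0.22 with the block, -0.26 with the Y-linked pattern and -0.36 to 0.38 over omissions, and Gclm -0.16 to 0.12. Between untreated genotypes, omissions gave -0.70 to 0.22 in Mt1, -0.10 to 1.14 in Mt2, -0.12 to 0.06 in Gclc, -0.14 to 0.05 in Gclm, -0.03 to 0.07 in Txnrd1 and -0.13 to 0.05 in Nfe2l2, which was 0.01 with library totals. The Y-linked pattern gave 0.07 in Gclc and Gclm, -0.03 in Txnrd1 and 0.02 in Nfe2l2. Between colitic genotypes, Gclm was 0.00 with an FPKM of at least 1, -0.03 with limma at either pseudocount, -0.07 with the block, -0.10 with library totals, -0.11 with the Y-linked pattern and -0.11 to 0.20 over omissions. Nqo1 was 0.18 with the block, 0.02 with the Y-linked pattern and -0.67 to 0.05 over omissions, Nfe2l2 0.08 with the block and -0.12 to 0.07, and Srxn1 -0.02 to 0.32. For the interaction, Nfe2l2 was -0.04 with RLE factors and DESeq2, -0.06 with no filter and the Y-linked pattern, -0.08 with an FPKM of at least 1, -0.02 with limma at either pseudocount, -0.16 with library totals and -0.16 to 0.11 over omissions, Gclm -0.14 with the block, -0.06 with library totals, -0.18 with the Y-linked pattern and -0.05 to 0.29, and Txnrd1 -0.03 to 0.36. DESeq2 gave no adjusted p for Mt2 between untreated genotypes. The causes were not tested.

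Library totals without scaling moved the median of all genes to 0.165 for DSS in Tmem173fl/fl mice and to -0.126 for the interaction. Of 899 checks of a gene's log2 fold change, 792 kept direction and call, where a gene called in neither run also counts as kept. Calls of members were lost in 0 alternatives for DSS in Tmem173fl/fl mice. For Mt1 with DSS in Tmem173iΔmye mice the call was lost in 7 of 17. Between colitic genotypes it was lost in 9 of 17 for Mt1 and in 4 of 17 for Mt2. Mt2 had 0 to 6 counts per library in untreated colon, so its fold changes rest on few reads.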
